A study of Mus musculus with 36 samples.

Results

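Hepatic steroid hormone metabolism was followed through 9 genes of the liver count table, which holds 53715 genes. They are Cyp17a1, Hsd3b5, Hsd3b2, Hsd3b3, Hsd11b1, Hsd17b2, Srd5a1, Akr1c6 and Akr1d1. They were chosen by name and found through their Ensembl identifiers and GENCODE M21 symbols. All 9 had a row in the table, 5 had counts and were tested, and 4 were listed at 0 in every library.

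The libraries came from livers of male C57BL/6 mice aged 10 weeks. Control mice ate AIN93G, a purified rodent diet, and the Red and Tangerine groups ate diets with 10% of red or of tangerine tomato powder, each for 6 weeks from 4 weeks of age. Each diet had 12 libraries with separate mouse numbers, although the labels give a range of mice per group that starts below 12. The labels carry no genotype beyond the strain, no time of day at collection, and no statement of pooling or litter, so p-values measure the spread between these libraries.

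The liver both activates and clears steroid hormones that the adrenal glands and gonads release. Its dehydrogenases switch hydroxyl and keto groups and so turn potent steroids into weak ones or back. Its reductases saturate the steroid ring, and transferases then add sulfate or glucuronide for excretion. In mice, several of these enzymes are made at different levels in male and female liver.

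Totals ran from 21290169 to 33810573 counts per library, and 14068 genes passed the filter on low counts. The hepatocyte markers fixed for the tissue, 7 of 7, were detected, and their summed level ran from 83535.5 to 123801.9 CPM (counts scaled to the size of the library) over the 36 libraries. Of 7 adrenal markers, 6 had counts and Cyp11b1, which makes corticosterone in the adrenal cortex, was at 0. Nr5a1, Cyp11b2, Cyp11a1 and Mc2r had only 1, 4, 7 and 7 counts over all 36 libraries together. Their summed level ran from 1.18 to 5.52 CPM on control, from 1.60 to 2.89 on red and from 1.18 to 2.77 CPM on tangerine. Single tangerine libraries held more of the kidney markers (mouse 198, 24.8 CPM), the pancreas markers (mouse 216, 11.4 CPM) and the bile duct markers (mouse 192, 111.2 CPM) than the other libraries of that diet, which reached 9.85, 0.0766 and 29.5 CPM. On red, mouse 186 held 10.0 CPM of the adipose markers and mouse 199 held 49.4 CPM of the bile duct markers, against at most 6.0 and 30.5 CPM in the others. Spp1 alone gave 107.5 CPM of the bile duct sum in mouse 192 and 41.9 CPM in mouse 199. On tangerine, Krt19, Krt7, Epcam and Sox9 were each highest in a library other than that of mouse 192. On red, Krt19 and Sox9 were highest in mouse 199 too, and Krt7 and Epcam in mouse 186. On control, the adrenal sum was highest in mouse 208, where Cyp21a1 gave 4.08 of the 5.52 CPM, with 2.42 CPM the next highest sum. The endothelial sum was as low as 41.9 CPM on control (median 129.5) and 63.1 CPM on tangerine (median 133.4). The sum of the Kupffer cell (liver macrophage) markers was as low as 68.5 CPM on control (median 171.6) and 99.2 CPM on tangerine (median 174.7). Each Kupffer cell marker was lowest in mouse 137 on control and in mouse 225 on tangerine, as were the endothelial markers Stab2, Pecam1, Kdr and Oit3. The part of these cells in the results was not tested. In bulk liver, fewer cells of a type and less RNA per cell cannot be told apart.

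Hsd3b5, Hsd3b2, Hsd11b1 and Srd5a1 had 0 counts in all 36 libraries. Hsd3b5 is a reductase of the hydroxysteroid dehydrogenase family known from male mouse liver, and Hsd3b2 belongs to the same family. Hsd11b1 regenerates corticosterone inside liver cells, and Srd5a1 is the alpha-reductase that makes dihydrotestosterone from testosterone. All 4 lay wholly inside the annotated span of a longer gene on the opposite strand. Hsd3b5 (ENSMUSG00000038092, chr3:98618634-98630252, minus strand) and Hsd3b2 (ENSMUSG00000063730, chr3:98709255-98724543, minus strand) lay inside Zfp697, which M21 annotates at chr3:98382461-98753812 on the plus strand and which had 407 to 1027 counts per library. Hsd11b1 (ENSMUSG00000016194, chr1:193221634-193264075, minus strand) lay inside Lamb3 (chr1:193207699-193343878), with 57 to 230 counts. Srd5a1 (ENSMUSG00000021594, chr13:69573449-69611442, minus strand) lay inside Nsun2 (chr13:69533746-69635780), with 1675 to 2671 counts.

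The same held across the table. Of 1246 protein-coding genes wholly within another annotated gene, 1237 (99.3%) had 0 counts in every library, whether the longer gene lay only on the opposite strand (792 of 800, 99.0%) or on the same strand (445 of 446, 99.8%). Among protein-coding genes not within another gene, 3160 of 20644 (15.3%) were at 0. B2m, the light chain of MHC class I that nearly every cell makes, lay inside Patl2 and was at 0 as well. A 0 for these 4 steroid genes is therefore reported only as a listed value, with no level, limit or comparison of diets. How the counting program treated reads shared by overlapping genes is not given in the sources used here.

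**Figure D1:**
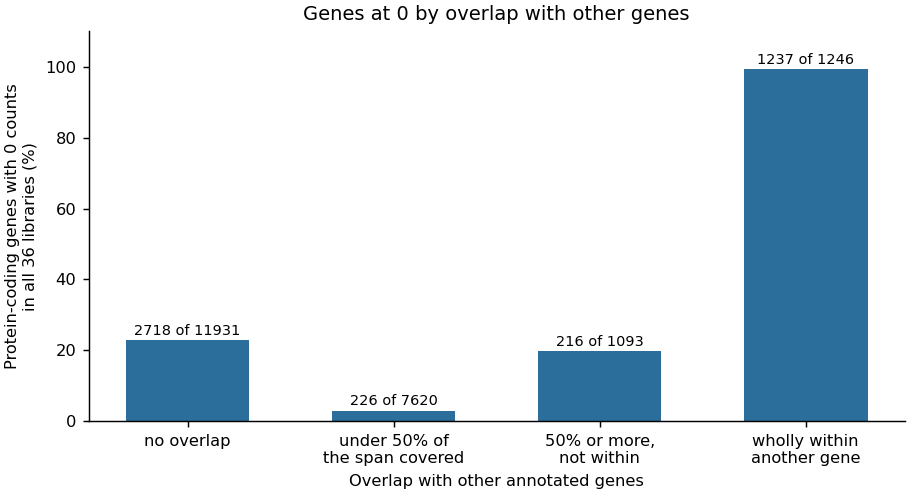
Share of protein-coding genes with 0 counts in all 36 libraries (vertical axis, percent) by how far other annotated genes cover their span (horizontal axis), with the gene numbers above each bar. The bar for genes wholly within another gene, the class of Hsd3b5, Hsd3b2, Hsd11b1 and Srd5a1, stands at 99.3%, and the other bars stand at 22.8%, 2.97% and 19.8%.

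Hsd3b3 (ENSMUSG00000062410, chr3:98741523-98763127, minus strand), a dehydrogenase and isomerase that makes the hormone form of the steroid ring, lies beside Hsd3b2 and reaches into Zfp697, with 56.9% of its span covered and 75.9% of its exon bases outside other genes. Its coding sequence was 95.1% identical to that of Hsd3b2 and 79.6% identical to that of Hsd3b5, each of 1122 bases. The first 60 coding bases, from GENCODE M21 transcripts, are printed to show how alike the family is at its start, with the bases that differ from Hsd3b3 in capitals.
Hsd3b3: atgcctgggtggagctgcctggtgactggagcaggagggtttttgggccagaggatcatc
Hsd3b2: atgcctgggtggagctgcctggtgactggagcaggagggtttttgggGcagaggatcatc
Hsd3b5: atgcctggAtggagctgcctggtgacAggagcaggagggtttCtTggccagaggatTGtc
Over the whole of the transcripts, 6.69% of the 50-base words of Hsd3b3 also occurred in another gene, mostly Hsd3b2 (6.34%). Reads from those stretches cannot be told apart, so the Hsd3b3 values carry that uncertainty. Akr1c6 shared 1.38% of its 50-base words with Akr1c20, and Cyp17a1, Hsd17b2 and Akr1d1 shared none.

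The 5 genes with counts differed widely in level. Per kilobase of exon outside other genes, the medians over 36 libraries were 716.8 CPM for Akr1c6, 70.5 for Hsd17b2, 63.0 for Akr1d1, 5.99 for Cyp17a1 and 2.01 for Hsd3b3. Akr1c6 lay between 484.5 and 935.8 CPM per kilobase and overlapped none of the others. The ranges of Hsd17b2 (49.8 to 102.7) and Akr1d1 (38.9 to 113.4) overlapped, and so did those of Cyp17a1 (1.13 to 26.2) and Hsd3b3 (1.14 to 3.09). Cyp17a1 varied most between livers: its highest library was 23.3 times its lowest, against 1.93 times for Akr1c6, 2.06 for Hsd17b2, 2.70 for Hsd3b3 and 2.91 for Akr1d1.

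None of the 5 genes passed edgeR's quasi-likelihood test at an adjusted p of 0.05 in any contrast between diets. Of all 14068 genes, 0.149% passed between red and control, 0.0142% between tangerine and control, 1.71% between tangerine and red, 0.00711% between both tomato diets and control, and 1.18% for any difference among the 3 diets. At an unadjusted p under 0.05, 2 of the 5 differed between red and control (13.3% of all genes did), 0 between tangerine and control (5.47%), 1 between tangerine and red (15.1%), 1 between both tomato diets and control (6.77%), and 2 among the 3 diets (13.9%). Some other settings called members of the 5. For red against control limma-voom called 3 of the 5 (10.5% of all genes), edgeR with surrogate variables, which stand for unlabelled variation between libraries, 2 (2.6%) and edgeR without red mouse 177 called 1 (0.425%). For any difference among the diets these settings called 3 (7.9%), 2 (6.52%) and 1 (1.18%). Surrogate variables called 1 of the 5, Hsd17b2, for tangerine against red (-0.19, adjusted p = 0.0488), where 5.82% of all genes passed. The median log2 fold change of the 5 genes came to -0.09 (red against control), 0.07 (tangerine against control) and 0.17 (tangerine against red), beside 0.00, -0.01 and 0.00 over all genes. Red and tangerine were compared with the same control libraries.

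**Figure D2:**
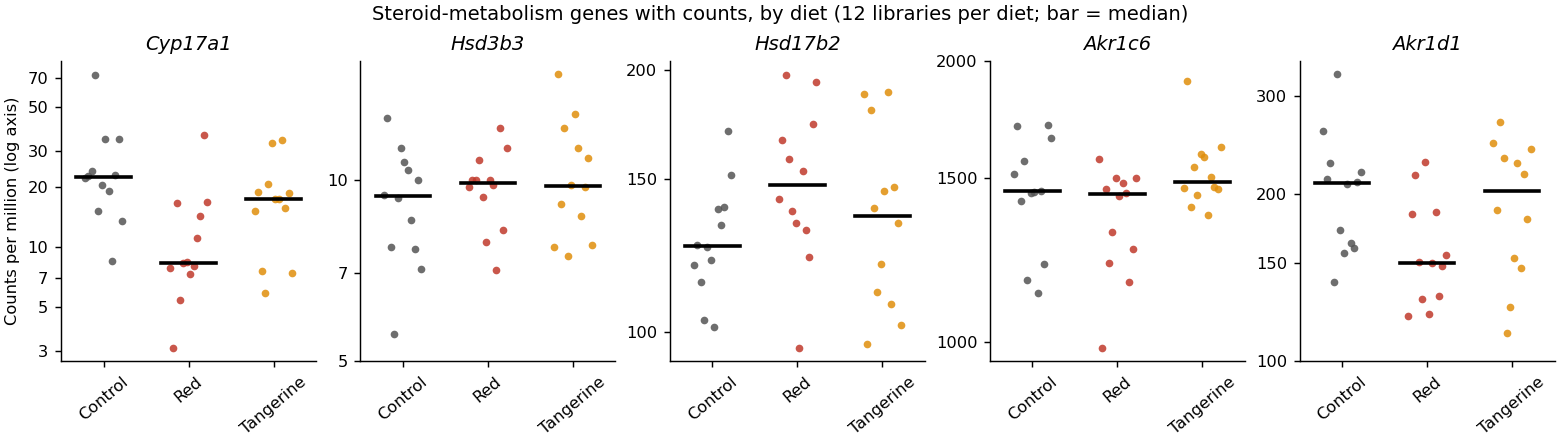
Level of the 5 genes with counts in each library (points, CPM on a log axis that differs between panels) by diet, 12 libraries each, with the median as a bar. In the Cyp17a1 panel 7 of the 12 red libraries lie below every control library, whereas the diets overlap across most of their range in the other panels.

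Cyp17a1 (ENSMUSG00000003555, chr19:46667165-46673172, minus strand), the hydroxylase and lyase of androgen synthesis, had the largest difference in value of the 5. On control it had a lowest level of 8.49, a median of 22.4 and a highest level of 72.7 CPM. On red the lowest, median and highest levels were 3.12, 8.31 and 36.4 CPM. On tangerine they were 5.86, 17.4 and 34.2 CPM. The groups overlapped: 11 of 12 red libraries lay below the control median and 7 below every control library, and the remaining red library, mouse 177 at 36.4 CPM, lay far above the next at 16.7 CPM. The control mean of 25.9 ± 16.6 CPM (SD, n = 12) included mouse 159 at 72.7 CPM, with the next library at 34.8 CPM, and the red mean was 11.9 ± 8.77 CPM (SD, n = 12).

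On the log2 scale, Cyp17a1 differed between red and control by -1.12 (edgeR p = 0.00183, adjusted p = 0.121, SE 0.332, 95% interval -1.79 to -0.44). Tangerine against control gave -0.56 (adjusted p = 0.954, SE 0.327, interval -1.22 to 0.11), with 10 of 12 tangerine libraries below the control median, and tangerine against red gave 0.56 (adjusted p = 0.427, SE 0.331, interval -0.11 to 1.24). Across both tomato diets the value was -0.84 (SE 0.276, adjusted p = 0.545). The call for red against control turned on the setting: without red mouse 177 the value was -1.41 (edgeR adjusted p = 0.0357), and without control mouse 159 it was -0.86 (adjusted p = 0.255). Limma-voom gave -1.43 (adjusted p = 0.00842), edgeR with surrogate variables gave -1.03 (adjusted p = 0.0426), and over the 14 settings tried the adjusted p ran from 0.00842 to 0.42.

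As3mt, an arsenic methyltransferase, was the tested gene whose level followed Cyp17a1 most closely across the 36 libraries (Spearman rho 0.75 among 14068 genes, and 0.76 on control, 0.79 on red and 0.37 on tangerine). It lies on the same chromosome at chr19:46707458-46741099, 34285 bases from Cyp17a1 with 1 protein-coding gene between them. Its lowest, median and highest levels were 29.3, 35.7 and 45.8 CPM on control, then 21.5, 28.4 and 34.5 on red, and 26.1, 33.4 and 38.7 CPM on tangerine. The highest As3mt libraries on control and on red were those of mice 159 and 177, as for Cyp17a1. As3mt fell by 0.35 on the log2 scale from control to red (edgeR adjusted p = 0.0271, SE 0.0747), with 12 of 12 red libraries below the control median. Without control mouse 159 it was no longer past the threshold (-0.31, adjusted p = 0.0674), nor with a score of clock genes as covariate (-0.27, adjusted p = 0.305). It was picked for its likeness to Cyp17a1 in the same libraries, so its difference is no separate support for that of Cyp17a1. The next gene by likeness was 1810053B23Rik (rho 0.74, chromosome 16).

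Akr1d1 (ENSMUSG00000038641, chr6:37530173-37568815, plus strand) is the beta-reductase that saturates the ring of steroid hormones and of bile acid precursors. Its lowest, median and highest levels were 138.9, 209.5 and 328.1 CPM on control, then 120.8, 150.4 and 228.3 on red, and 112.6, 202.1 and 269.4 CPM on tangerine. The diets overlapped, with 10 of 12 red libraries below the control median and 4 below every control library, while tangerine libraries lay evenly, 6 above and 6 below that median. On the log2 scale red differed from control by -0.35 (edgeR p = 0.0163, adjusted p = 0.264, SE 0.140, interval -0.64 to -0.07), tangerine differed from control by -0.07 (adjusted p = 1.0, SE 0.140, interval -0.35 to 0.21), and tangerine differed from red by 0.28 (adjusted p = 0.333, SE 0.140, interval 0.00 to 0.57). Limma-voom called the first of these (-0.49, adjusted p = 0.0203), and over the 14 settings its adjusted p ran from 0.0203 to 0.606. The genes most like Akr1d1 across libraries were Slc16a7 (rho 0.89), a monocarboxylate transporter, and Fam8a1 (rho 0.86).

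The 250 bases before the start of Akr1d1 (RefSeq, GRCm38.p6, chr6:37529923-37530172, plus strand) are shown because the D-box, the motif of Dbp and Tef, ends just before the start site. Levels of both factors differed between the tomato diets, whereas Akr1d1 itself did not pass edgeR's test between them. The capitals mark the match.
Akr1d1: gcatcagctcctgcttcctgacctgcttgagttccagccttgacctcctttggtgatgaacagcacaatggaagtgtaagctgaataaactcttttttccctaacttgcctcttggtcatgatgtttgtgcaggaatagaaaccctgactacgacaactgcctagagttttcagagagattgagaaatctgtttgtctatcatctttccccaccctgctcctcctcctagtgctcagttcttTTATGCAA
The D-box was searched as TTATGNAA on both strands, and 3.23% of 27025 upstream windows of this length held it. The same bases on the minus strand matched the C/EBP motif TTGCNNAA, which 9.55% of windows held. RefSeq windows were at hand for 7 of the 9 genes. Hsd11b1 also held a D-box (124 bases upstream, plus strand) and the FOXA motif TGTTTAC (138 bases upstream, minus strand, 3.09% of windows). Its window (chr1:193242361-193242610) lies before a RefSeq start that is inside the M21 span of the gene. Searches for the E-box CACGTG, the HNF1 half-site GTTAAT, the full HNF1 site, the HNF4A direct repeat and the glucocorticoid element gave no match in the windows of the 7 genes. A match describes letters only, and whether these factors act on Akr1d1 was not tested.

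Hsd17b2 (ENSMUSG00000031844, chr8:117701904-117759027, plus strand), which oxidises estradiol and testosterone to weaker ketones, had lowest, median and highest levels of 101.4, 125.5 and 170.4 CPM on control. On red they were 95.9, 147.6 and 197.7 CPM, and on tangerine 96.7, 136.0 and 188.9 CPM. Red libraries lay above the control median in 10 of 12 cases, with 3 above every control library, and the tangerine libraries spread on both sides. On the log2 scale red differed from control by 0.23 (edgeR p = 0.0518, adjusted p = 0.379, SE 0.113, interval 0.00 to 0.46), tangerine differed from control by 0.10 (adjusted p = 1.0, SE 0.113, interval -0.12 to 0.33), and tangerine differed from red by -0.12 (adjusted p = 0.639, SE 0.113, interval -0.35 to 0.11). Red against control was called by limma-voom (0.37, adjusted p = 0.0198) and with surrogate variables (0.25, adjusted p = 0.0179), and its adjusted p ran from 0.0179 to 0.60 over the 14 settings. Slc35c2 and Rrbp1, a ribosome-binding protein of the endoplasmic reticulum, were the genes most like it (rho 0.82 each).

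Akr1c6 (ENSMUSG00000021210, chr13:4434306-4457877, plus strand), an aldo-keto reductase that makes active androgens and estrogens from their ketones, was the most abundant of the 5 and the steadiest. Its lowest, median and highest levels were 1127.7, 1449.7 and 1708.0 CPM on control, then 984.9, 1439.1 and 1570.9 on red, and 1366.3, 1483.1 and 1902.5 CPM on tangerine. The medians lay close together and the ranges overlapped. On the log2 scale red differed from control by -0.09 (edgeR adjusted p = 0.614, SE 0.0733, interval -0.24 to 0.06), tangerine differed from control by 0.07 (adjusted p = 1.0, SE 0.0733, interval -0.08 to 0.22), and tangerine differed from red by 0.17 (edgeR p = 0.0294, adjusted p = 0.267, SE 0.0733, interval 0.02 to 0.31). Its nearest genes by likeness were Rps3a2 (rho 0.79) and Gm28438 (rho 0.77).

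Hsd3b3 had lowest, median and highest levels of 5.55, 9.40 and 12.7 CPM on control, then 7.10, 9.90 and 12.2 on red, and 7.49, 9.77 and 15 CPM on tangerine. All 3 diets overlapped. On the log2 scale red differed from control by 0.07 (edgeR adjusted p = 0.833, SE 0.114, interval -0.16 to 0.30), tangerine differed from control by 0.15 (adjusted p = 1.0, SE 0.114, interval -0.08 to 0.38), and tangerine differed from red by 0.08 (adjusted p = 0.793, SE 0.114, interval -0.15 to 0.31). Dhtkd1 (rho 0.80) and Lin7a (rho 0.78) were most like it. Of its paralogs, Hsd3b6 had medians of 0.513, 0.500 and 0.451 CPM on control, red and tangerine, Hsd3b1 had 0.169, 0.122 and 0.162 CPM, and Hsd3b4, which also lies within Zfp697, was listed at 0.

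**Figure D3:**
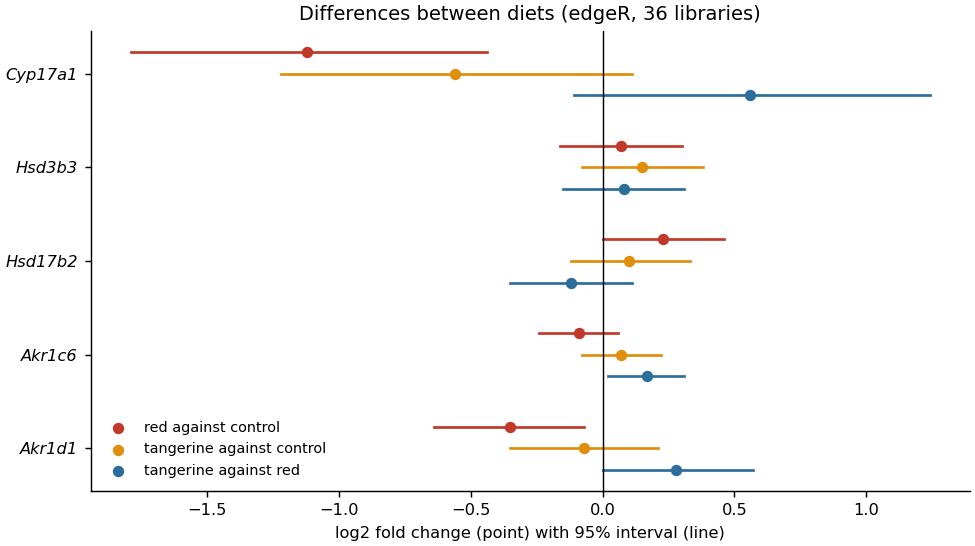
Log2 fold change (points) and 95% interval (lines) of the 5 genes for 3 contrasts between diets, from edgeR's fit to 36 libraries, with 0 marked by a vertical line. The widest intervals are those of Cyp17a1, where red against control lies at -1.12, and the points of Hsd3b3, Hsd17b2, Akr1c6 and Akr1d1 lie between -0.35 and 0.28.

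The 5 genes were then compared with each other across livers, as 10 pairs of log2 CPM values over 36 libraries. Hsd17b2, which inactivates sex steroids by oxidation, and Akr1d1, which reduces the steroid ring, ran opposite to each other. Pearson's r was -0.731 and Spearman's rho -0.714 (permutation p = 1e-05 each, the smallest that 100000 resamples can give, adjusted p = 0.0001). Without the 2 libraries farthest from the median of Hsd17b2, r was -0.688. Within diets r was -0.718 on control, -0.503 on red and -0.837 on tangerine, so the relation had the same sign in all 3.

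**Figure D4:**
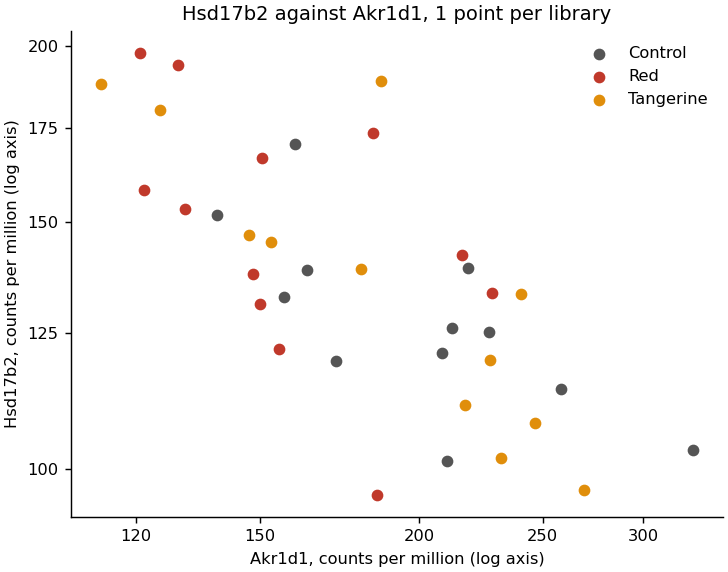
Level of Hsd17b2 against that of Akr1d1 (both CPM, log axes), with 1 point per library coloured by diet. Libraries with more Akr1d1 have less Hsd17b2 (Pearson's r -0.731 over 36 libraries), and points of the 3 diets mix along the slope.

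Cyp17a1 ran opposite to Hsd17b2 (r = -0.508, rho -0.460, permutation p = 0.00159 and 0.00509, adjusted 0.00567 and 0.0170) and with Akr1d1 (r = 0.504, rho 0.397, permutation p = 0.0017 and 0.0168, adjusted 0.00567 and 0.0421). Without the 2 libraries farthest from the Cyp17a1 median these r values were -0.389 and 0.356. Within control, red and tangerine they were -0.591, -0.436 and -0.342 for the first pair and 0.582, 0.354 and 0.275 for the second. Hsd3b3 ran with Akr1d1 (r = 0.463, rho 0.502, permutation p = 0.00416 and 0.00195, adjusted 0.0104 and 0.00975; r = 0.462 without 2 libraries), with within-diet r of 0.499, 0.329 and 0.714. The other 6 pairs had adjusted permutation p of 0.074 or more for Pearson's r.

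Akr1d1, Hsd17b2 and Hsd3b3 also followed the main axis of variation between livers. The first principal component of all tested genes, these 5 among them, held 16.3% of the variance. Its Pearson's r over 36 libraries was 0.791 with Akr1d1, -0.692 with Hsd17b2, 0.641 with Hsd3b3, 0.396 with Akr1c6 and 0.287 with Cyp17a1 (permutation p = 1e-05, 2e-05, 4e-05, 0.0162 and 0.0899, adjusted over 5 relations 5e-05, 5e-05, 6.67e-05, 0.0203 and 0.0899). Without the 2 libraries farthest from each gene's median, r was 0.791, -0.667, 0.542, 0.318 and 0.191 in that order. Spearman's rho was 0.791, -0.689, 0.621, 0.294 and 0.228 (permutation p = 1e-05, 1e-05, 7e-05, 0.0817 and 0.181, adjusted 2.5e-05, 2.5e-05, 0.000117, 0.102 and 0.181). Within control, red and tangerine r was 0.799, 0.788 and 0.775 for Akr1d1, -0.741, -0.474 and -0.843 for Hsd17b2, and 0.617, 0.529 and 0.857 for Hsd3b3. Such a component is built to follow many genes at once. How many of all tested genes follow it as closely was not counted, so these values do not set the 5 genes apart. The part of this component in the relation of Hsd17b2 and Akr1d1 was not tested.

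Clock genes, which set the daily rhythm of liver transcription, differed between the tomato diets, with 7 of 13 tested past the threshold (3 higher and 4 lower on tangerine than on red, 53.8%, against 1.71% of all genes). The list was chosen with earlier results of these data known, so this share is no independent test. Over the settings tried, 0 to 10 of its genes were called in this contrast, beside 0 to 819 of all genes. A score of these 13 genes, high where Dbp is high, averaged 0.785 ± 2.98 on control, -2.52 ± 2.34 on red and 1.74 ± 2.27 on tangerine (SD, n = 12 each). None of the 5 genes followed the score past an adjusted p of 0.05: the largest r was 0.370 with Akr1d1 (rho 0.384, permutation p = 0.0268 and 0.0216, adjusted over 5 relations 0.134 and 0.108; r = 0.408 without 2 libraries; within control, red and tangerine 0.187, 0.145 and 0.307). With the score as covariate, the log2 fold change of Cyp17a1 for red against control was -0.98 (edgeR adjusted p = 0.42). Because the score itself differed between diets, adjusting any gene for it can also take out a diet difference.

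Around the 9 genes, a wider list of 79 genes of steroid conversion, conjugation, transport and reception was examined in the same fit. Of these, 78 were in the table, 7 were at 0 (4 of them within another gene) and 54 were tested. For tangerine against red 3 were higher and 0 lower (5.56% of the 54, against 1.71% of all genes), with a median log2 fold change of 0.10 beside 0.00 over all genes. This list, too, was chosen with earlier results of these data known. Over the settings tried, 0 to 7 of its genes were called here, beside 0 to 819 of all genes. In the contrasts with control 0 of 54 passed by edgeR. At an unadjusted edgeR p under 0.05 there were 12 for red (3 higher, 9 lower, beside 13.3% of all genes). There were 5 for tangerine (4 higher, 1 lower, beside 5.47%) and 6 for both diets (2 higher, 4 lower, beside 6.77%). Between tangerine and red, 14 of the 54 were higher and 2 lower at that level, beside 15.1% of all genes. For red against control DESeq2 passed 2 of the list (1.37% of all genes), and limma-voom passed 7 (10.5% of all genes).

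The 3 genes past the threshold belong to different steps. Cyp2a5, a P450 that hydroxylates coumarin and is close kin to the steroid hydroxylase Cyp2a4, had lowest, median and highest levels of 54.7, 82.6 and 177.4 CPM on red and 91.2, 171.5 and 332.3 CPM on tangerine, beside 56.4, 177.4 and 289.5 CPM on control. It rose by 1.02 on the log2 scale from red to tangerine (edgeR adjusted p = 0.0309, SE 0.256), and each of the 12 tangerine libraries exceeded the red median. Cyp2a4, which can share reads with it, gave 0.91 (SE 0.265, adjusted p = 0.0687). Fdx1, the ferredoxin that feeds electrons to mitochondrial P450s, had 55.7, 64.4 and 71.2 CPM on red, 63.3, 74.6 and 91.1 CPM on tangerine and 58.7, 70.3 and 81.0 CPM on control. It rose by 0.24 on that scale (edgeR adjusted p = 0.0289, SE 0.0593), and the red median was exceeded in 11 of 12 tangerine libraries.

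Serpina6, the corticosteroid-binding globulin of blood, had lowest, median and highest levels of 168.0, 219.9 and 314.7 CPM on red, 186.6, 288.1 and 415.9 CPM on tangerine and 176.0, 283.7 and 430.6 CPM on control. It rose by 0.47 from red to tangerine (edgeR adjusted p = 0.0489, SE 0.129), with the red median exceeded in 11 of 12 cases. The red and tangerine ranges overlapped for all 3 genes. With the clock score as covariate, the values were 0.04 for Cyp2a5 (edgeR adjusted p = 0.946), 0.14 for Fdx1 (adjusted p = 0.449) and 0.11 for Serpina6 (adjusted p = 0.771). The score averaged -2.52 on red and 1.74 on tangerine, so adjusting for it can also take out a diet difference. The part of the clock in these values was not tested. All 3 genes also missed the threshold without tangerine mouse 216, the library with the pancreas markers (edgeR adjusted p = 0.0698, 0.0752 and 0.113). Their values were then 0.97, 0.21 and 0.43. Without red mouse 186, the library with the highest adipose marker sum, Fdx1 (0.22, edgeR adjusted p = 0.0522) and Serpina6 (0.45, adjusted p = 0.0737) missed it as well. The share of all genes called without either library is not given here. The part of pancreas or adipose tissue in these changes was not tested.

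**Figure D5:**
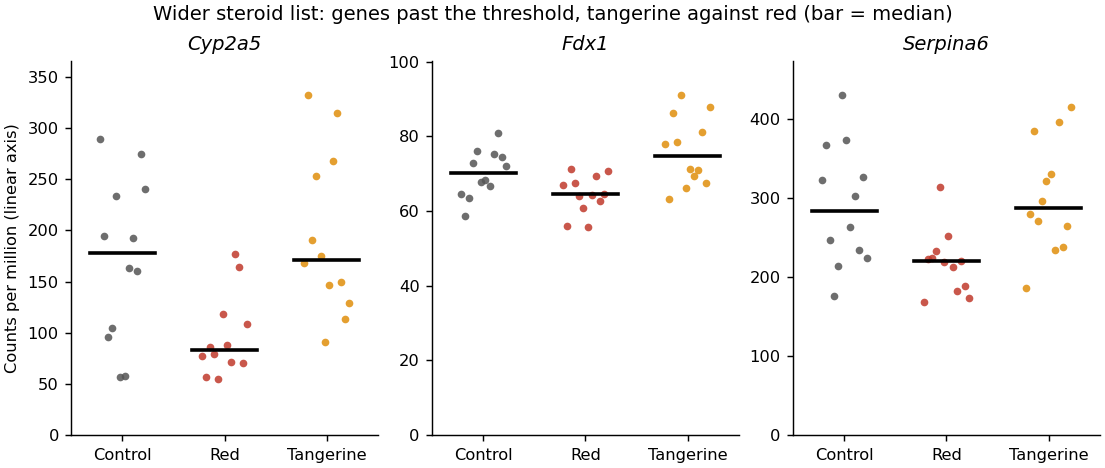
Level of Cyp2a5, Fdx1 and Serpina6 in each library (points, CPM on linear axes from 0) by diet, 12 libraries each, with the median as a bar. The red medians of 82.6, 64.4 and 219.9 CPM are the lowest of the 3 diets in each panel, and the points of red and tangerine overlap.

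By role, the 5 electron donors of the wider list were all tested and 1 rose (Fdx1), 1 of 13 tested P450s rose (Cyp2a5) and 1 of 7 tested receptors and carriers rose (Serpina6) from red to tangerine. None of 10 dehydrogenases, 7 reductases and 12 conjugating enzymes passed. Of all genes 1.71% passed in this contrast, so counts from so few genes do not set the roles apart. Among the dehydrogenases, H6pd, which supplies Hsd11b1 with NADPH and was chosen after its values were seen, had medians of 362.9, 431.4 and 407.1 CPM on the control, red and tangerine diets. The control median was exceeded in 12 of 12 red libraries (log2 fold change 0.25, SE 0.0648, edgeR adjusted p = 0.0686). Hsd11b1 itself was listed at 0, so the pair could not be compared.

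Lists tied to hormone and feeding state were read from the same fit. Of 12 tested male-predominant liver genes, 7 tested female-predominant genes, 8 genes high in fasting, 6 genes high in feeding and 6 genes of bile acid synthesis, 0 passed edgeR's test in any of the 4 directed contrasts. At an unadjusted p under 0.05 there were, in the same order, 2, 3, 3, 2 and 0 between red and control (13.3% of all genes), 1, 0, 0, 2 and 0 between tangerine and control (5.47%), 2, 3, 3, 1 and 0 between tangerine and red (15.1%), and 1, 1, 0, 1 and 0 between both diets and control (6.77%).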

How the data were processed

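Liver RNA of 36 mice was measured by RNA-seq. Per the labels' protocols, the library kit (NEXTflex Rapid Directional) is a directional one. The authors deposited raw read counts per gene in 1 table, and each column was matched to its sample through the column name in that sample's label. The submitters' processing notes name GRCm38.p6, FastQC, Trimmomatic and edgeR; the aligner, counter and strand setting are not given in the sources used here. Symbols and positions come from GENCODE M21 (53620 of 53715 identifiers matched; the unmatched rows held 0.00177% of counts), upstream windows from RefSeq (GRCm38.p6).

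EdgeR 4.0.16 (R 4.3.3) was fitted to all 36 libraries without covariates: filterByExpr (count of 10), TMM scaling, robust quasi-likelihood F tests, and Benjamini-Hochberg adjustment over 14068 genes per contrast at 0.05. CPM are counts scaled by TMM library size, log2 CPM used a prior count of 2, and SE is the fold change over the root of F. Near-duplicate libraries were looked for by chi-square per degree of freedom over genes with 20 counts a pair (smallest value 13.7), and none was merged. Genes named are the 9, the list genes past the threshold, and, for each of the 5 with counts, the 2 tested genes most like it. Outside this rule, paralogs (Hsd3b1, Hsd3b4, Hsd3b6, Cyp2a4, Akr1c20), genes whose spans hold others (Zfp697, Lamb3, Nsun2, Patl2), B2m and H6pd are named, chosen after their values were seen. The 9 genes and all lists were chosen with earlier results of these data known. Other settings were DESeq2 1.42.0, limma-voom 3.58.1, sva 3.50.0, other filters and scaling, covariates and libraries left out.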

Additional observations from a re-analysis of the deposited data

Results flagged for a closer look

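For tangerine against red, the difference between the effects of the tomato diets passed edgeR's test (adjusted p under 0.05) for these genes of the lists examined. In the wider steroid list the log2 fold changes were 1.02 for Cyp2a5 (adjusted p = 0.0309), 0.24 for Fdx1 (adjusted p = 0.0289) and 0.47 for Serpina6 (adjusted p = 0.0489).

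Among clock genes, the repressor Nr1d2 gave 0.75 (edgeR adjusted p = 0.0173), and the D-box factors Dbp and Tef gave 1.84 (adjusted p = 0.0289) and 1.08 (adjusted p = 0.0271). The activators Arntl, Npas2 and Clock gave -1.46 (adjusted p = 0.0464), -2.51 (adjusted p = 0.0224) and -0.46 (adjusted p = 0.0492), and Cry1 gave -0.47 (adjusted p = 0.0497). In the hepatocyte marker list, Cps1, the first enzyme of the urea cycle, gave 0.40 (adjusted p = 0.0446). None of the 5 steroid genes with counts was among them.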

How the results depend on the processing

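No paired analysis was possible because no mouse number occurs in more than 1 diet. Of 275 log2 fold changes of the 5 genes under 14 other settings, 260 kept their direction and their side of the threshold, 7 passed it and 8 changed sign; 3 of the settings (without control mouse 159, without red mouse 177, the first principal component as covariate) were chosen after seeing the data. Those that changed sign were all uncalled: Hsd3b3, tangerine against red, with the clock score (-0.11), surrogate variables (-0.01) or the first component (-0.06) as covariate; Akr1c6, red against control, with surrogate variables (0.01); Akr1c6, both diets against control, with surrogate variables (0.03), the first component (0.01) or without red mouse 177 (0.01); and Akr1d1, tangerine against control, without control mouse 159 (0.01; leaving out 1 library gave -0.09 to 0.01).

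Of the 5 genes tested, 0 were called in each contrast of the fit reported, and the 4 genes at 0 were not tested. For red against control limma-voom called 3 (10.5% of all genes), surrogate variables 2 (2.6%) and leaving out red mouse 177 called 1 (0.425%). For any difference among diets the same settings called 3 (7.9%), 2 (6.52%) and 1 (1.18%). For tangerine against red surrogate variables called 1 (5.82%). In the wider list, red against control went from 0 to 1 (mean log2 CPM of at least 1), 2 (DESeq2, 1.37% of all genes), 7 (limma-voom, 10.5%) and 3 (surrogate variables, 2.6%). Leaving out 1 library gave 0 to 1 (1 without red mouse 186 or 177). Tangerine against control became 1 with surrogate variables, and both diets against control became 1 with limma-voom or surrogate variables. Tangerine against red went from 3 to 0 (no low-count filter, clock score or mouse number as covariate), 5 (DESeq2), 7 (limma-voom) and 6 (surrogate variables, 5.82% of all genes). It went to 1 without red mouse 186 and 0 without tangerine mouse 216. Calls over all genes ranged from 0 to 819 in this contrast, so these counts alone say nothing about the list.

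Clock genes called for tangerine against red went from 7 to 2 (no filter), 0 (clock score or mouse number) and 4 (first component). They went to 4 without red mouse 186 and 2 without tangerine mouse 216. The clock score was built from these same genes, so the 0 with it as covariate tests nothing. For red against control, clock genes called went from 0 to 1 (DESeq2), 9 (limma-voom) and 2 (surrogate variables). Female-predominant genes went from 0 to 1 (DESeq2, surrogate variables, without red mouse 177) and 2 (limma-voom) for red against control and likewise for tangerine against red, where fitting only the groups compared also gave 1. Male-predominant genes went from 0 to 2 (limma-voom) and 1 (surrogate variables) for red against control, and to 1 (DESeq2, limma-voom, surrogate variables, only the groups compared) for tangerine against red. Genes high in fasting went from 0 to 1 with limma-voom for red against control and with 5 settings for tangerine against red, and genes high in feeding from 0 to 2 and 3 with surrogate variables and to 1 with the first component. Beside these counts, the share of all genes called rose too. For red against control it was 1.37% (DESeq2), 10.5% (limma-voom), 2.6% (surrogate variables) and 0.425% (without red mouse 177). For tangerine against red it was 5.82% with surrogate variables, and the shares under the other alternatives are not given here.

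Over all genes, calls ranged from 4 to 1482 for red against control (21 in the fit reported), 1 to 63 for tangerine against control (2), 0 to 819 for tangerine against red (241) and 1 to 48 for both diets (1). The cause of these changes was not tested. The depth gave 111 to 465 counts per library for Hsd3b3 and 79 to 2087 for Cyp17a1, against at least 2514 for Hsd17b2, Akr1c6 and Akr1d1.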
